A study of Homo sapiens with 6 samples.

Results

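The miR-320 family is a group of closely similar small RNAs, most of which share a seed, the stretch of bases by which a miRNA recognises its target transcripts. Its members here are the 5 mature miRNAs listed as hsa-miR-320a, hsa-miR-320b, hsa-miR-320c, hsa-miR-320d and hsa-miR-320e (the prefix is left out below). They were taken by name from read counts of 503 mature miRNAs in exosomes that the human breast carcinoma line MDA-MB-231 released. Of these 5 members, 3 had enough counts to be tested (miR-320a, miR-320b and miR-320c), among 79 tested miRNAs. The shMCU libraries came from stable clones with a hairpin named shMCU, which lowers the mitochondrial calcium uniporter gene MCU, and the shNC libraries from stable clones with the control hairpin shNC, with 3 libraries each. Both groups were cultured in medium whose serum had been freed of exosomes. The labels say neither how many clones stand behind a group nor whether replicates are separate cultures, so a p-value here reflects the spread of these libraries alone, which may be technical. Messenger RNA is not in these miRNA counts, so the lowering of MCU could not be checked from them. RNA of the cells themselves was not analysed here, so a lower level in the cells and a weaker transfer into exosomes cannot be told apart. Levels are relative to each library's total, so neither the number of vesicles nor the amount of a miRNA per vesicle can be read from them.

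Most miRNAs are cut from a long primary transcript by the nuclear enzyme Drosha. The hairpin of miR-320a, best studied in its mouse counterpart, bypasses that step: transcription starts at the hairpin itself, its first base carries the cap of a messenger RNA, export uses XPO1 (exportin 1) in place of exportin 5, and Dicer makes the mature form from the 3′ arm. Among human miRNAs, miR-484 is made with a capped start too, while mirtrons avoid Drosha by being spliced out as short introns. miR-320a is among the miRNAs reported in exosomes of tumour cells.

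The mature sequences show how close the members are and why their counts must be read with care. RefSeq (GRCh38.p14) gave a mature sequence for 4 of the 5 members. The set used here held none under the name miR-320a, so its seed and sequence were not compared. Bases 2 to 8, the seed, are in capitals, and each sequence runs 5′ to 3′.
miR-320b: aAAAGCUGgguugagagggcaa
miR-320c: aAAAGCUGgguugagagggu
miR-320d: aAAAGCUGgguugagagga
miR-320e: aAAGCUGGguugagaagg
miR-320b, miR-320c and miR-320d had the same seed and differed only near the 3′ end. With positions counted from 1 at the 5′ end, miR-320b and miR-320c were identical over their first 19 bases and differed at C20U, and miR-320b and miR-320d were identical over their first 18 bases and differed at G19A. A read trimmed to 18 bases would therefore match all 3 equally well. miR-320e starts at the second base of that pattern, so its seed is shifted, and compared from base 2 of miR-320b it had a single difference, G16A (positions in miR-320e). How the authors assigned reads that match several members is not given in the sources used here, so counts of the separate members are uncertain. Which reads miR-320a could share with the others was not assessed.

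Beyond the mature part the hairpins diverged more. The hairpins of the other tested members, miR-320b and miR-320c, are shown with the mature miRNA in capitals.
MIR320B1: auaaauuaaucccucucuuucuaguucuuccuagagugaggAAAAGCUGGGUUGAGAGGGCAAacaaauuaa
MIR320B2: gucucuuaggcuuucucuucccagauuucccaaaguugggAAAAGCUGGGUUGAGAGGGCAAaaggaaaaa
MIR320C1: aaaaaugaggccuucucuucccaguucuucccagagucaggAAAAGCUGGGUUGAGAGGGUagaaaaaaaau
MIR320C2: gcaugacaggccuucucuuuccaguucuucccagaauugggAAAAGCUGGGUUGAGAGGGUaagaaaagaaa
In each of the 7 hairpins of miR-320b to miR-320e in RefSeq the mature miRNA lay on the 3′ arm, and pairs of hairpins were identical at 70.8% to 83.8% of aligned positions. In GRCh38.p14, MIR320B1 spans bases 116671746 to 116671817 of chromosome 1 (plus strand) and MIR320B2 bases 224257040 to 224257110 of the same chromosome (minus strand). MIR320C1 and MIR320C2 are on chromosome 18 (plus strand), from 21683518 to 21683589 and from 24321675 to 24321746. By GENCODE release 29, also on GRCh38, MIR320B2 is in an intron of NVL on the same strand, MIR320E is in an intron of PRKD2 on the same strand, and MIR320C1 and MIR320C2 are antisense to introns of ABHD3 and OSBPL1A. MIR484 overlaps an exon of NDE1 on the same strand.

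Sequence features outside the naming rule were compared with the listed miRNAs. Of 437 listed miRNAs with a RefSeq mature sequence, 4 had the seed AAAGCUG: miR-320b, miR-320c, miR-320d and miR-4429. The leading member miR-320a was not among the 437, so this count says nothing about its seed. miR-4429, whose sequence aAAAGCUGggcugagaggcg has the same seed in capitals, was scarce, with a single count in shMCU replicate 3 and 0 in the other libraries. The motif GGAG, searched on the mature strand because it has been described in miRNAs that are sorted into exosomes, was in 9.84% of those 437 sequences and in none of miR-320b, miR-320c, miR-320d, miR-320e and miR-484, which says only that these letters do not occur there.

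Library totals were low, between 12859 and 14692 counts in shMCU and between 11563 and 47863 in shNC libraries. For a miRNA with 0 counts the limit was set at 3 counts, or 204 to 233 CPM (a count relative to its library's total) in shMCU and 62.7 to 259 CPM in shNC libraries, and the exact two-sided 95% Poisson interval for 0 counts reached higher, to between 251 and 287 CPM in shMCU libraries; these limits and all intervals on counts cover counting error only. The library of shMCU replicate 3 stood apart from the rest on the first principal component (score 6.11, against -2.73 to 1.11 elsewhere). The 4 miRNAs chosen as high in basal-like and mesenchymal breast cells (miR-221-3p, miR-222-3p, miR-100-5p and miR-29a-3p) took 14.6% to 16.9% of counts in shMCU and 11.03% to 17.8% in shNC libraries. Most of this was miR-100-5p, with 12.4% to 14.8% in shMCU and 8.16% to 15.1% in shNC libraries. The 6 listed epithelial miRNAs took 0.0619% to 0.136% in shMCU and 0.0397% to 0.208% in shNC libraries. The most abundant of them, miR-205-5p, took 0% to 0.0622% in shMCU and 0.0209% to 0.121% in shNC libraries.

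Together the family made up a small part of the exosomal miRNA counts, and its share overlapped between the groups. Its share was 1.40%, 0.946% and 0.622% in shMCU replicates 1, 2 and 3, against 1.51%, 1.20% and 1.04% in shNC replicates 1, 2 and 3. Here shMCU replicate 1 was above both shNC replicates 2 and 3. The mean was 0.989% ± 0.391 in shMCU and 1.25% ± 0.237 in shNC libraries (SD, n = 3 each), so the difference of -0.26 percentage points was smaller than the SD of the shMCU libraries and slightly larger than that of the shNC libraries. With the 10 most abundant miRNAs taken out of the denominator, which raises the share in every library, the difference was -0.53 points. Counting error alone does not cover the range within a group: the exact 95% binomial interval was 1.20% to 1.62% in shMCU replicate 1 and 0.494% to 0.774% in shMCU replicate 3. Without shMCU replicate 3 the difference was -0.078 points, and without shMCU replicate 1 it was -0.47 points.

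The lowest family share was in the library with the most miR-122-5p, a liver miRNA. It was counted in a list of miRNAs of liver and blood, cell types whose RNA could come with serum. The 8 listed miRNAs of that group took 2.83%, 3.91% and 10.6% of counts in shMCU replicates 1, 2 and 3, against 2.64%, 1.68% and 2.18% in shNC replicates 1, 2 and 3. Most of this in each library was miR-122-5p, the main miRNA of liver. Without it the list took 0.472%, 0.184% and 0.257% in shMCU replicates 1, 2 and 3. In shNC replicates 1, 2 and 3 the list without it took 0.309%, 0.450% and 0.402%. Thus shMCU replicate 3 was not the highest once miR-122-5p was left out. The largest part of what remained in each library was miR-16-5p, whose source was not tested. It had 48, 20 and 19 counts in shMCU replicates 1, 2 and 3, against 117, 42 and 67 counts in shNC replicates 1, 2 and 3. Between 5 and 6 of the 8 were detected in each shMCU library and between 6 and 7 in each shNC library. The red cell miRNAs miR-451a and miR-486-5p were detected in every library, and the white cell miRNA miR-223-3p was at 0 in all libraries but shNC replicate 1. Other white cell miRNAs on the list were detected at low counts. In shMCU replicates 1, 2 and 3, miR-142-5p had 2, 1 and 0 counts, miR-142-3p 0, 0 and 1, and miR-150-5p 0, 0 and 1. In shNC replicates 1, 2 and 3 they had 2, 3 and 1, 0, 3 and 0, and 1, 0 and 1 counts. With the list taken out of the denominator, the family held 1.44%, 0.985% and 0.696% in shMCU replicates 1, 2 and 3, against 1.55%, 1.22% and 1.06% in shNC replicates 1, 2 and 3, a difference of -0.24 points, close to the -0.26 points of the full denominator; the part of these miRNAs in the levels of the members was not tested further.

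**Figure D1:**
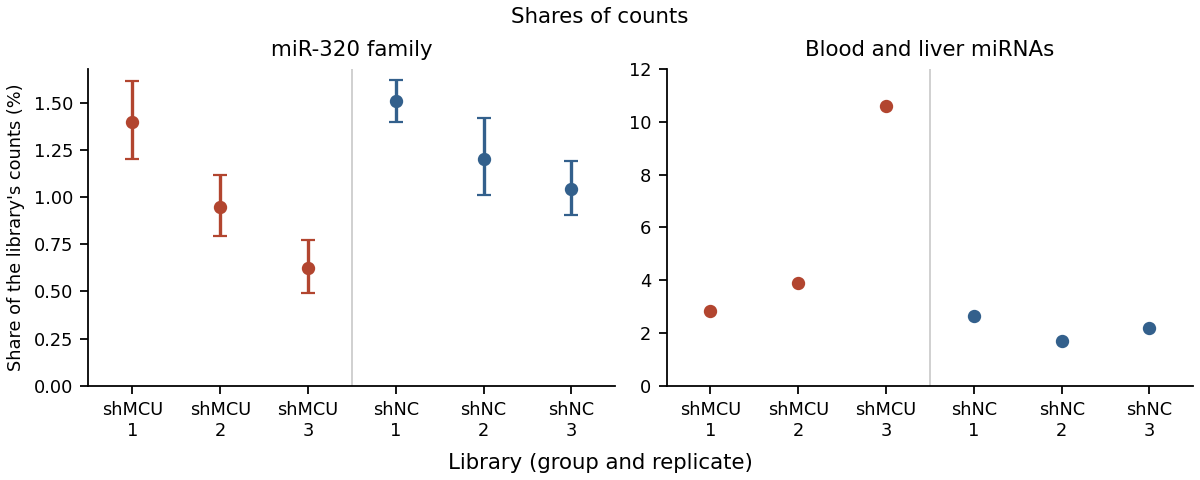
Share of each library's counts, in percent, taken by the miR-320 family (left, with exact 95% binomial intervals) and by the 8 blood and liver miRNAs (right), for shMCU and shNC replicates 1 to 3. The family share is lowest, at 0.622%, in shMCU replicate 3, where the blood and liver share is highest, at 10.6%. There miR-122-5p alone takes 10.4%.

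miR-320a was the leading member and did not differ between the groups beyond their spread. Its gene MIR320A spans bases 22244962 to 22245043 of chromosome 8 (GRCh38, minus strand, GENCODE release 29); it overlaps no other gene, and the nearest protein-coding gene is POLR3D, which encodes an RNA polymerase III subunit. It had 11060, 7623 and 4588 CPM in shMCU replicates 1, 2 and 3, against 10488, 7783 and 8047 CPM in shNC replicates 1, 2 and 3. The groups overlapped fully, with the highest and the lowest level both in shMCU libraries. From low to high, shMCU replicate 3 stood alone, with a 95% counting interval of 3493 to 5918 CPM; the next 3 libraries (shMCU replicate 2 and shNC replicates 2 and 3) had overlapping intervals, as did the top pair (shNC replicate 1 and shMCU replicate 1). By count it ranked between 19th and 27th of the 503 miRNAs in shMCU libraries and between 19th and 24th in shNC libraries. The mean was 7757 ± 3238 CPM in shMCU and 8773 ± 1491 CPM in shNC libraries (SD, n = 3 each). Its fitted fold change was 1.00, with a 95% interval from 0.652 to 1.53 (adjusted p = 0.99, edgeR's quasi-likelihood test with Benjamini-Hochberg adjustment over the 79 miRNAs).

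miR-320b, second in abundance, was lower in every shMCU library than in any shNC library, but the difference did not pass the test. It had 1315, 1293 and 1011 CPM in shMCU replicates 1, 2 and 3 (17, 19 and 13 counts), against 2800, 2162 and 1458 CPM in shNC replicates 1, 2 and 3 (134, 25 and 29 counts). The gap between the groups was narrow, from 1315 CPM in shMCU replicate 1 to 1458 CPM in shNC replicate 3, and the counting intervals of those libraries overlapped. Of the 79 tested miRNAs, 8 (10.1%) lay below in every shMCU library by CPM, so a separation like that of miR-320b was common in this table. With TMM-scaled CPM, which correct for differences in composition between libraries, 5 of 79 (6.33%) did, miR-320b among them. Without shMCU replicate 3, 10 of 79 (12.7%) did by CPM. Leaving out a library cannot undo a separation, so miR-320b was bound to remain among them. The mean was 1206 ± 170 CPM in shMCU and 2140 ± 671 CPM in shNC libraries (SD, n = 3 each). Its fitted fold change was 0.652 (95% interval 0.374 to 1.14; log2 fold change -0.62 ± 0.36, SE), the fourth lowest of 79, with an unadjusted p of 0.12 and an adjusted p of 0.70 (edgeR, quasi-likelihood). Without shNC replicate 1, the deepest library and the highest for miR-320b, the log2 fold change was -0.39.

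miR-320c was more scattered. It had 1237, 272 and 544 CPM in shMCU replicates 1, 2 and 3 (16, 4 and 7 counts), against 1191, 1384 and 704 CPM in shNC replicates 1, 2 and 3 (57, 16 and 14 counts). The groups overlapped through shMCU replicate 1, which lay above shNC replicates 1 and 3, while the 2 other shMCU libraries were the lowest of all. The mean was 685 ± 498 CPM in shMCU and 1093 ± 350 CPM in shNC libraries (SD, n = 3 each). The fitted fold change was 0.715 (95% interval 0.314 to 1.63, adjusted p = 0.86 by edgeR's quasi-likelihood test). Single shMCU libraries moved it: the log2 fold change, -0.48 with all libraries, became -1.12 when shMCU replicate 1 was left out and -0.14 when shMCU replicate 2 was.

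miR-320d and miR-320e were below the filter on low counts. miR-320d had 5, 4 and 1 counts in shMCU replicates 1, 2 and 3, against 28, 8 and 4 counts in shNC replicates 1, 2 and 3. At 387, 272 and 77.8 CPM in shMCU and 585, 692 and 201 CPM in shNC libraries, the groups overlapped. Summed over libraries, 10 of 40481 counts in shMCU and 40 of 79310 counts in shNC gave a ratio of 0.490 (exact 95% interval 0.218 to 0.997, for counting error alone). Of the 40 shNC counts, 28 came from replicate 1, and this ratio is not corrected for composition. Computed the same way, the ratio of miR-320a was 0.818 (0.715 to 0.934), against its fitted fold of 1.00. When no filter was applied, edgeR's quasi-likelihood fit put the log2 fold change of miR-320d at -0.94 ± 0.66 (SE, adjusted p = 0.68). In that fit the median over all 503 miRNAs was -0.25, and miR-320a was at -0.19. miR-320e, the member with the shifted seed, had 0 counts in every shMCU library and 1, 0 and 0 counts in shNC replicates 1, 2 and 3, so no fold could be given at this depth.

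**Figure D2:**
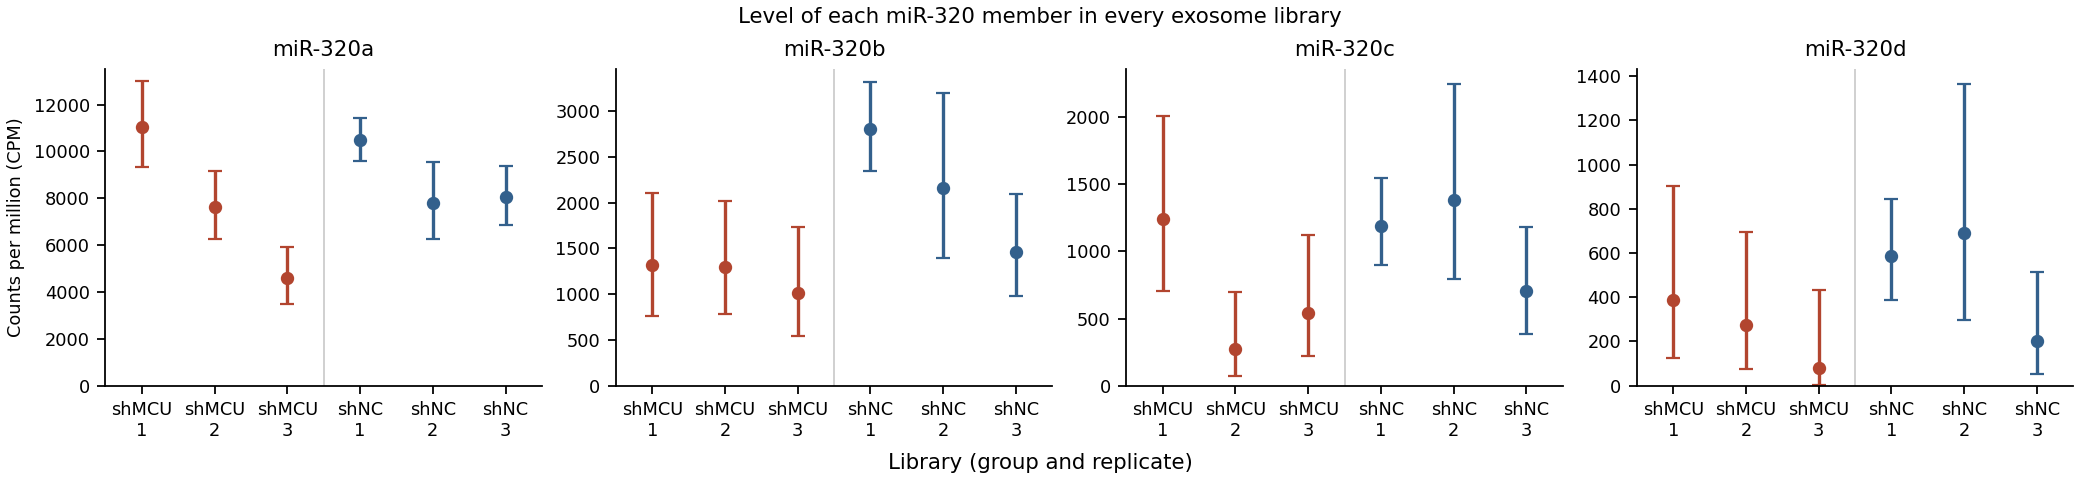
Level of miR-320a, miR-320b, miR-320c and miR-320d in CPM for shMCU and shNC replicates 1 to 3; bars are exact 95% Poisson intervals and each panel has its own scale from 0. miR-320b is the member whose shMCU libraries (1011 to 1315 CPM) all lie below the shNC libraries (1458 to 2800 CPM).

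Of the 79 miRNAs tested, 0 (0%) were past the adjusted threshold of 0.05 in edgeR (quasi-likelihood test) and 3 (3.8%) had an unadjusted p under 0.05, none of them a member; DESeq2 called 1, miR-122-5p. miR-320b and miR-320c were fitted lower and miR-320a at a fold of 1.00, which was above 1 without the 10 most abundant miRNAs, without shNC replicate 1 or without shMCU replicate 3; over the whole set, 41 of the 79 miRNAs (51.9%) were fitted lower. The members' median log2 fold change was -0.48, against -0.02 over all 79. With library totals in place of TMM the median of all miRNAs moved to -0.23, and miR-320a, miR-320b and miR-320c had log2 fold changes of -0.18, -0.84 and -0.67.

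**Figure D3:**
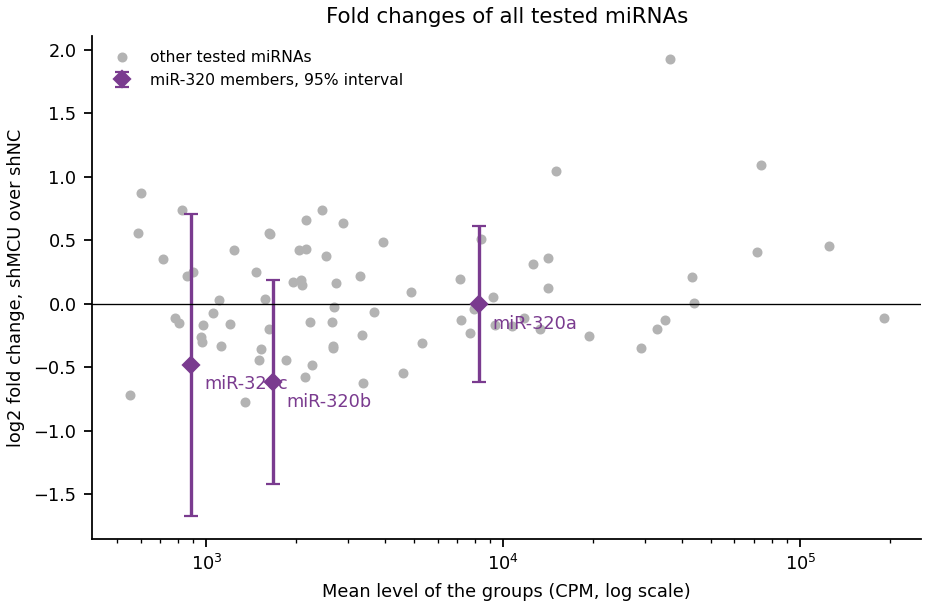
log2 fold change (shMCU over shNC, edgeR with TMM) against the mean level of the groups in CPM on a log axis, for the 79 tested miRNAs; grey points are other miRNAs and purple diamonds are miR-320a, miR-320b and miR-320c with 95% intervals. All 3 intervals include 0, and miR-320b has the fourth lowest value of the 79.

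Ratios between members do not depend on the depth or the scaling of a library, and they were compared to see whether the make-up of the family differed. They do depend on how reads that match several members were assigned, which is not given. miR-320a accounted for 77.8% ± 3.57 of family counts in shMCU and 70.5% ± 6.33 in shNC libraries (SD, n = 3 each), followed by miR-320b with 13.1% ± 3.46 in shMCU and 16.9% ± 2.48 in shNC. miR-320c held 6.82% ± 3.42 in shMCU and 8.72% ± 2.48 in shNC, and miR-320d 2.30% ± 0.908 in shMCU and 3.86% ± 1.91 in shNC libraries. The order from miR-320a to miR-320b to miR-320c was the same in each of the 6 libraries. For miR-320b over miR-320c it was not beyond counting error in shMCU replicates 1 and 3 and shNC replicate 2. The counts there were 17 against 16, 13 against 7 and 25 against 16.

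For every count of miR-320a there were 0.119, 0.170 and 0.220 counts of miR-320b in shMCU replicates 1, 2 and 3, against 0.267, 0.278 and 0.181 in shNC replicates 1, 2 and 3. The groups overlapped, since shMCU replicate 3 was above shNC replicate 3. The mean log2 ratio was -2.60 ± 0.45 in shMCU and -2.07 ± 0.34 in shNC libraries (SD, n = 3 each), a difference of -0.53. Summed over libraries the ratio was 0.156 in shMCU (exact 95% interval 0.113 to 0.211) and 0.250 in shNC (0.212 to 0.294), intervals that do not overlap but cover counting error only and not the spread between libraries; in shNC, 134 of the 188 summed miR-320b counts came from replicate 1. Without shMCU replicate 1, which had the lowest ratio, the difference of the mean log2 ratios was -0.30.

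The ratio of miR-320c to miR-320a was 0.112, 0.0357 and 0.119 in shMCU replicates 1, 2 and 3, against 0.114, 0.178 and 0.0875 in shNC replicates 1, 2 and 3. Here shMCU replicate 2, with 4 counts of miR-320c, was low and the other shMCU libraries lay among the shNC libraries. The mean log2 ratio was -3.68 ± 0.98 in shMCU and -3.05 ± 0.52 in shNC libraries (SD, n = 3 each), and the difference of -0.63 was -0.069 without shMCU replicate 2. Between miR-320c and miR-320b, the members that differ only from base 20 on, the mean log2 ratio was -1.08 ± 1.09 in shMCU and -0.98 ± 0.30 in shNC libraries, a difference of -0.10 that was smaller than either spread.

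**Figure D4:**
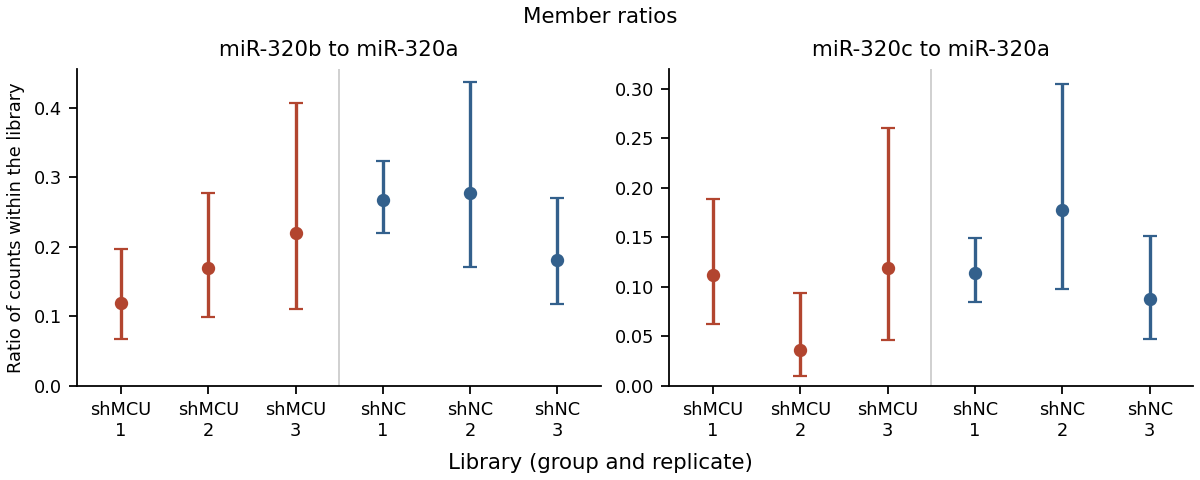
Counts of miR-320b (left) and miR-320c (right) per count of miR-320a within each library, for shMCU and shNC replicates 1 to 3, with exact 95% intervals from the binomial share. The shMCU ratios of miR-320b (0.119 to 0.220) overlap the shNC ratios (0.181 to 0.278).

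The miRNAs with the most similar profiles were other miRNAs than the members themselves. Likeness was the root mean square difference between log2 CPM profiles over the 6 libraries (TMM-scaled, each centred), a description across libraries that share depth and scaling. Libraries held 13 to 134 counts of miR-320b and 4 to 57 of miR-320c. Counting error therefore adds to their differences from any other miRNA and was not separated here, so the order does not show that members behave differently. For miR-320a the nearest were miR-221-3p (0.10), miR-27a-3p (0.12) and miR-24-3p (0.12), against a median of 0.46 over all tested miRNAs. For miR-320b they were miR-181b-5p (0.26), miR-103a-3p (0.29) and miR-181a-5p (0.30), with a median of 0.56. For miR-320c they were miR-17-5p (0.31), miR-22-3p (0.39) and miR-16-5p (0.40), with a median of 0.74. The difference between miR-320a and miR-320b was 0.40, between miR-320b and miR-320c 0.56 and between miR-320a and miR-320c 0.61, so that miR-320b came 30th and miR-320c 58th in likeness to miR-320a. In likeness to miR-320b, miR-320a came 18th and miR-320c 40th, and in likeness to miR-320c, miR-320b came 16th and miR-320a 20th.

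The other capped miRNA and the mirtrons that were listed were scarce in these exosomes. miR-484, the capped one, whose mature sequence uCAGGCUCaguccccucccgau (seed in capitals) comes from the 5′ arm, had 1, 0 and 0 counts in shMCU replicates 1, 2 and 3, against 10, 0 and 1 counts in shNC replicates 1, 2 and 3. Its 1 of 40481 summed counts in shMCU and 11 of 79310 in shNC gave a ratio of 0.178 with an exact 95% interval from 0.0041 to 1.23, and 10 of the shNC counts came from the deepest library. Family totals were far higher, at 181, 139 and 80 counts in shMCU replicates 1, 2 and 3, against 722, 139 and 207 counts in shNC replicates 1, 2 and 3. Of 5 listed mirtron miRNAs, 0 passed the filter; the most abundant, miR-877-5p, had 0, 0 and 1 counts in shMCU replicates 1, 2 and 3, against 3, 0 and 1 counts in shNC replicates 1, 2 and 3.

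Among miRNAs reported as enriched in exosomes, 3 of 7 listed were tested and 0 were past the adjusted threshold in edgeR's quasi-likelihood test. miR-100-5p and let-7a-5p have been reported together with miR-320a as exosomal cargo that depends on AGO2, the protein that carries miRNAs. miR-100-5p had 123821, 148448 and 131659 CPM in shMCU replicates 1, 2 and 3, against 151161, 81553 and 112653 CPM in shNC replicates 1, 2 and 3, with overlapping groups and a fold of 1.37 (95% interval 0.904 to 2.08). let-7a-5p, of the tumour-suppressive let-7 family, had 31013, 31922 and 22319 CPM in shMCU replicates 1, 2 and 3, against 33533, 40993 and 37769 CPM in shNC replicates 1, 2 and 3. Every shMCU library of let-7a-5p was below every shNC library by CPM, but not by TMM-scaled CPM, and its fold was 0.873 (0.615 to 1.24). miR-1246, an annotation whose reads may derive from the U2 small nuclear RNA, had a fold of 1.06 (0.712 to 1.59), or a log2 fold change of -0.14 with library totals alone. The median log2 fold change of these 3 was 0.09, against -0.02 over all 79.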

How the data were processed

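Small RNA of exosomes was sequenced in 3 shMCU and 3 shNC libraries, grouped by the sample titles. The deposited values are read counts per mature miRNA, whole numbers not normalized by the authors; Bowtie was the aligner and hg19 the genome, per the submitters' processing notes. The sources used here give neither the counting tool nor the annotation release nor how multiply matching reads were handled. Exosome isolation combined polyethylene glycol with ultracentrifugation, per the labels' protocols. PCR copies cannot be told from separate molecules.

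Counts of all 503 miRNAs were filtered with filterByExpr (minimum count 10) and tested with edgeR 4.0.16 in R 4.3.3 (TMM, robust quasi-likelihood F test, group as the only term, Benjamini-Hochberg, threshold 0.05). The test was checked on simulated counts. These followed the test's own model, with variability fitted to these data, so departures from that model were not checked. The standard error of a log2 fold change was its size over the root of its F. CPM use all listed miRNAs as the denominator; log2 profiles used a prior count of 2. Intervals are exact Poisson or Clopper-Pearson at 95%. Sequences and their positions come from RefSeq (GRCh38.p14) and host genes from GENCODE 29; no coordinates were converted from hg19. Family members and lists of miRNAs were chosen with earlier results of these data known. Named miRNAs are the members, miR-484, tested members and the most abundant untested member of each list, and the 3 nearest profiles per tested member; miR-4429 was added after its sequence was seen. Alternatives included DESeq2 1.42.0, other scalings and filters, a replicate block and each library left out.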

Additional observations from a re-analysis of the deposited data

How the results depend on the processing

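The number of miRNAs past an adjusted p of 0.05, 0 by edgeR, was 1 with DESeq2 and 1 without a filter, and 0 in every other alternative, each library left out included (0 to 0); no member was called in any. Over the alternatives the named miRNAs had 221 fold changes: 209 had the same sign and call as the main test, 11 changed sign, and 1, miR-122-5p with DESeq2, passed (adjusted p = 0.0105). miR-320b and miR-320c stayed below 0 in every alternative that could test them, between -0.84 and -0.39 and between -1.12 and -0.14 (adjusted p from 0.42 to 0.99 and from 0.41 to 0.99); the filter of 100 counts in 3 libraries left both out. miR-320a changed sign to 0.078 without the 10 most abundant miRNAs and ran from -0.26 to 0.15 with a library left out (0.11 without shNC replicate 1, 0.15 without shMCU replicate 3); its adjusted p ran from 0.57 to 0.99. Other sign changes were miR-1246 at -0.14 with library totals alone, -0.089 without a filter and -0.12 to 0.19 with a library left out; miR-222-3p at 0.021 without the 10 most abundant and -0.20 to 0.15 with a library left out; miR-22-3p at -0.52 to 0.045 and miR-221-3p at -0.37 to 0.013 with a library left out. For these the cause was not tested.

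The difference in family share ran from -0.47 to -0.078 points with a library left out and was -0.53 with the 10 most abundant miRNAs out of the denominator, -0.36 from summed counts and -0.27 over the miRNAs that passed the filter; with a library left out, the log2 ratio difference of miR-320b to miR-320a ran from -0.74 to -0.30 and that of miR-320c from -0.94 to -0.069; summed counts gave -0.68 and -0.43. The count of 8 miRNAs with every shMCU library below every shNC library was 5 with TMM-scaled CPM, miR-320b among them. It was 10 without shMCU replicate 3, where miR-320b was bound to remain, since leaving out a library cannot undo a separation. These alternatives and the denominator without blood and liver miRNAs were chosen after seeing the data. With the replicate number as a block the log2 fold changes of miR-320a, miR-320b and miR-320c were -0.033, -0.59 and -0.53 and 0 miRNAs were called; deviations of same-numbered libraries correlated at 0.16, -0.35 and 0.08, so no pairing was seen. At these depths a typical 95% interval spanned a factor of 1.74 either side of the fold change.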
